A study of Gallus gallus with 10 samples.

Results

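Translation factor and aminoacyl-tRNA synthetase genes were examined in RNA from the magnum, the oviduct segment that secretes egg white around the yolk, of broiler breeder hens (Gallus gallus). The members were chosen by name. They comprised initiation factor genes (EIF followed by a digit, without the EIF2AK kinases), elongation factor genes (EEF followed by a digit, with the enzymes that modify or phosphorylate the factors) and aminoacyl-tRNA synthetase genes (an amino acid letter followed by ARS, with or without 1 or 2, and EPRS). The rule found 83 of the 29558 genes in the count table, of which 43 were initiation, 11 elongation and 29 synthetase genes. Hens at 50 weeks of age, in declining lay (labelled Aged, n = 5), were compared with hens at 35 weeks, at peak lay (labelled Young, n = 5). Every hen had an egg in the magnum, whole tissue was taken, and the labels give no strain beyond broiler breeder and no treatment other than age. The birds' numbers differ between all libraries, and the p-values measure the spread between these hens.

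Protein synthesis starts when eIF2 brings the initiator tRNA to the small ribosomal subunit, eIF3 holds the complex together and the eIF4 proteins bind the cap of the mRNA. The elongation factors eEF1 and eEF2 then deliver aminoacyl-tRNAs and move the ribosome along the message, and the synthetases charge each tRNA with its amino acid, with separate enzymes in the cytosol and in mitochondria. The magnum makes large amounts of secreted protein for each egg, and control of initiation through eIF2 and through the eIF4E-binding proteins is a general means by which cells set their rate of synthesis.

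Library totals lay between 188271 and 258195 counts (median 220938), so that 0 counts in a library leave room for 11.6 to 15.9 CPM, counts scaled to a common library size, by counting error alone (3 counts). All 9 magnum gland markers had counts, and their summed level was 27730 to 41290 CPM at 50 weeks and 41100 to 54860 CPM at 35 weeks. The part of this difference in the results on the members was not tested. The titles also carry the words shell gland. Of 6 shell gland markers in the table, CALB1, SLC26A9 and SPP1 were at 0 in all libraries, and the 6 summed to 3.87 to 34.1 CPM at 50 weeks and 0 to 40.3 CPM at 35 weeks. In a principal component analysis of 500 tested genes with the highest variance, replicate 4 at 50 weeks (−11.5) and replicates 1 and 2 at 35 weeks (−12.1 and −18.7) stood apart on the first component (26.8% of variance) from the other 7 libraries, which lay between 2.58 and 7.49. In whole tissue, fewer cells of a type and less RNA per cell cannot be told apart.

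The 83 genes took up 0.308% to 0.422% of the counts, depending on the library. Of these, 79 had a count in some library, 58 to 62 had a count in any given library, and 43 averaged 2 counts or more. EEF1A2 and the mitochondrial synthetases FARS2 and WARS2 were among those at 0 in all 10 libraries, which allows a level of up to 1.37 CPM over the whole set. With edgeR's filter on low counts, 10 members could be tested, 5 initiation, 2 elongation and 3 synthetase genes. None of the 10 reached the threshold of 0.05 on the adjusted p (edgeR, quasi-likelihood, Benjamini-Hochberg over the 1773 genes tested), which 0.0564% of all tested genes did. DESeq2 and limma with sample weights also called no member, and each had 2 members at an unadjusted p under 0.05. They were EIF4EBP1 and KARS of 79 in DESeq2, against 2.01% of all its genes, and EIF2S1 and KARS of 10 in limma, against 13.6%. At an unadjusted p under 0.05 edgeR had 1 member, KARS, against 10.5% of all tested genes (6.03% lower and 4.46% higher at 50 weeks), and no tested member had groups that did not overlap, against 1.64%.

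Most members had lower mean values at 50 weeks. Among the 10 tested, 9 had a negative log2 fold change, with a median of −0.29, whereas 49.2% of all tested genes were negative and their median was 0.006. The share of all tested genes that were negative was not taken in the other settings. Scaling by library totals alone left 7 of the 10 negative. Without the 3 libraries that stood apart RARS2 no longer passed the filter on low counts, 7 of the other 9 were negative, and EIF5B, which was positive, entered the test. A limit on the mean over all 10 libraries kept 43 members with a mean count of 2 or more. Of these 34 (79.1%) had a lower mean CPM at 50 weeks, compared with 51.0% of the 4409 genes of the table that met the same limit. By class, the mean CPM was lower at 50 weeks for 27 of 43 initiation genes, 8 of 10 elongation genes and 19 of 26 synthetase genes that had any count, compared with 52.7% of the 15792 genes of the table that had one. These shares describe genes of the same 10 libraries, and no test was made of them.

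**Figure D1:**
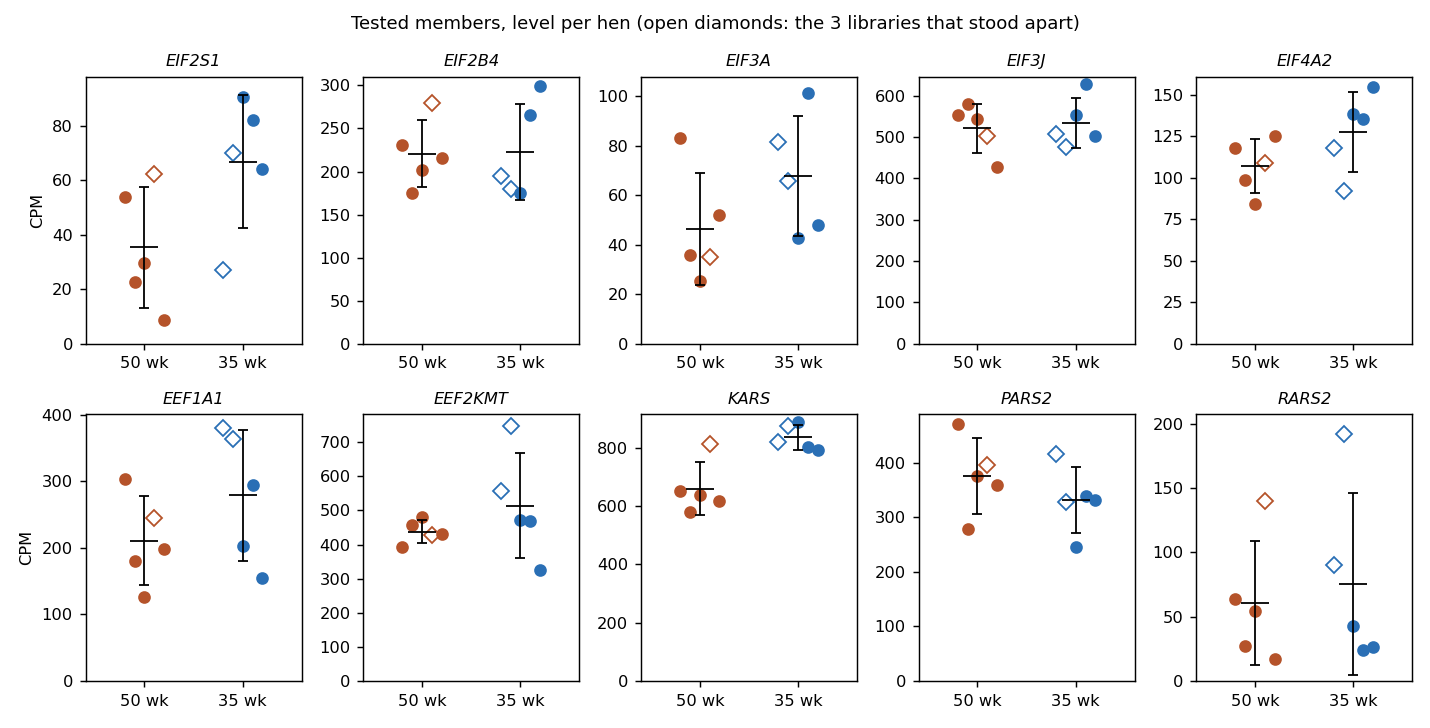
Level of each of the 10 tested members in every hen, in CPM scaled with TMM factors, at 50 weeks (left in each panel) and 35 weeks (right). Bars are the mean and SD over 5 hens, and open diamonds mark the 3 libraries that stood apart. KARS has 4 of 5 hens at 50 weeks below every hen at 35 weeks, and the groups overlap in every panel.

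Among the synthetases, KARS had the smallest p of any tested member. It encodes lysyl-tRNA synthetase, which charges lysine tRNAs and in vertebrates serves both the cytosol and mitochondria, and lies on chromosome 11 at 19506141 to 19525931 (GRCg7b). It had 133, 129, 151, 209 and 143 counts in hens 1 to 5 at 50 weeks, against 181, 200, 167, 166 and 148 counts in hens 1 to 5 at 35 weeks. Scaled to library size, the level was 579 to 652 CPM in replicates 1, 2, 3 and 5 at 50 weeks and 813 CPM in replicate 4, against 790.5 to 888 CPM at 35 weeks, so the groups overlapped through replicate 4 alone. The means were 660 ± 89.8 and 835 ± 43.8 CPM (SD, n = 5 each) at 50 and 35 weeks, which is −0.34 on the log2 scale (SE 0.13, 95% interval −0.62 to −0.055) with an adjusted p of 0.37 by edgeR. The adjusted p lay between 0.136 and 0.821 over the other settings, and in 5 of these 18 the unadjusted p was not under 0.05. TERF2IP, a telomere protein gene that overlaps KARS in the annotation, had a mean of 1367 ± 732 CPM in 50-week hens and 1291 ± 426 CPM in 35-week hens (log2 fold change 0.083, SE 0.34). Replicate 4 at 50 weeks, 1 of the 3 libraries that stood apart, was also its highest, with 675 counts. The other 50-week hens had 195 to 279 counts of TERF2IP and the 35-week hens 140 to 385. Whether reads of 1 of these genes entered the count of the other was not tested.

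The other tested synthetases both serve mitochondria. PARS2, the mitochondrial prolyl-tRNA synthetase gene (chromosome 8, 24933749 to 24935661), was the 1 tested member with a positive fold change. It had 96, 62, 89, 102 and 83 counts in hens 1 to 5 at 50 weeks, against 92, 75, 46, 70 and 62 at 35 weeks. The levels overlapped, with 376 ± 69.2 CPM in 50-week hens and 332 ± 60.8 CPM in 35-week hens (log2 fold change 0.18, 95% interval −0.21 to 0.57). RARS2, the mitochondrial arginyl-tRNA synthetase gene (chromosome 3, 76112297 to 76151587), had 13, 6, 13, 36 and 4 counts at 50 weeks, against 20, 44, 8, 5 and 5 at 35 weeks. Its 3 highest libraries were those that stood apart on the first principal component, at 90.5 to 192 CPM, against 17.3 to 63.7 CPM in the other 7. Its log2 fold change of −0.32 had an SE of 0.65, and turned to 0.39 without replicate 2 at 35 weeks. The SD was 79.9% of the mean at 50 weeks and 93.9% at 35 weeks, where counting error alone would give 26.4% and 24.7%. The part of these 3 libraries in its spread was not tested.

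In a split made after the counts were seen, any gene whose enzyme serves both the cytosol and mitochondria, such as KARS, was placed with the cytosol. The 16 genes for synthetases of the cytosol summed to 663 to 875 CPM of the library total at 50 weeks and 908 to 1022 CPM at 35 weeks. The ages did not overlap on this sum, with or without TMM or RLE scaling. Among single tested genes of the whole table, 1.64% had ages that did not overlap. Sums of other subgroups were also examined, and with all their genes the ages overlapped. Of the 16 genes here, 14 had lower means at 50 weeks, against 52.7% of all genes with a count. KARS made up 85.9% of these counts. Without it the sums were 94.3 ± 23.5 CPM in 50-week hens and 150 ± 41.8 CPM in 35-week hens, with overlapping ranges of 65.8 to 118 CPM and 94.1 to 199 CPM. The 13 genes for synthetases of mitochondria alone summed to 465 ± 94.1 CPM in 50-week hens and 418 ± 89.1 CPM in 35-week hens, with 5 genes lower at 50 weeks, 5 higher and 3 at 0. Neither sum was tested, because the members and the split were chosen with results of these data known.

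Of the cytosolic synthetases with too few counts to be tested, RARS, for arginyl-tRNA, had the most. It had 7, 5, 4, 4 and 2 counts at 50 weeks, against 9, 9, 5, 9 and 8 at 35 weeks, with means of 19.6 ± 9.59 CPM in 50-week hens and 38.6 ± 6.9 CPM in 35-week hens. With no filter on low counts edgeR put the difference at −0.95 on the log2 scale, with an SE of 0.49 and an adjusted p of 0.581. At still lower counts AARS1, for alanyl-tRNA, had 0 to 2 counts at 50 weeks and 1 to 4 at 35 weeks (unadjusted p = 0.0478 by edgeR with no filter). YARS2, for tyrosyl-tRNA of mitochondria, went the other way, with 0, 1, 0, 5 and 4 counts at 50 weeks, against 0, 0, 0, 0 and 1 at 35 weeks (unadjusted p = 0.0198). Both had an adjusted p of 0.581, and both were named after their values were seen. EPRS, which carries the glutamyl and prolyl activities in a fused protein, had 0 to 6 counts at 50 weeks and 0 to 5 at 35 weeks, and YARS, for tyrosyl-tRNA, 1 to 6 and 0 to 7. LARS1, for leucyl-tRNA, had 0 to 5 counts at 50 weeks and 0 to 6 at 35 weeks, and NARS, for asparaginyl-tRNA, 0 to 4 and 0 to 4. The 21 remaining untested synthetases, AARS1 and YARS2 among them, averaged under 2 counts a library.

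In initiation, the tested gene with the largest fold change was EIF2S1, which encodes the alpha subunit of eIF2, the subunit that stress kinases phosphorylate. EIF2S1 (chromosome 5, 28476077 to 28486579) had 11, 5, 7, 16 and 2 counts in hens 1 to 5 at 50 weeks, against 6, 16, 17, 17 and 12 at 35 weeks. Replicate 4 was the highest hen at 50 weeks (62.2 CPM) and replicate 1 the lowest at 35 weeks (27.1 CPM), and these overlapped, while no 50-week hen reached the other 4 hens at 35 weeks, the lowest of which had 64.1 CPM. The means were 35.3 ± 22.3 CPM in 50-week hens and 66.8 ± 24.4 CPM in 35-week hens. On the log2 scale the difference was −0.90 (SE 0.45, 95% interval −1.85 to 0.061), with an adjusted p of 0.501 by edgeR. Replicates 1 and 3 at 50 weeks (53.9 and 29.5 CPM) also lay above the lowest 35-week hen. Replicate 4 at 50 weeks and replicate 1 at 35 weeks are among the 3 libraries that stood apart. Without all 3 the fold change was −1.46 (adjusted p = 0.142 by edgeR). Without replicate 5 at 50 weeks, the lowest hen, it was −0.64 (adjusted p = 0.76 by edgeR). The beta and gamma subunits had fewer counts. EIF2S2 had 1 to 3 counts at 50 weeks and 1 to 5 at 35 weeks, and EIF2S3 had 8, 7, 3, 6 and 6 at 50 weeks, against 11, 9, 3, 2 and 10 at 35 weeks. All 3 subunits had lower means at 50 weeks, and their sum was 43.8 to 102 CPM at 50 weeks and 95 to 124 CPM at 35 weeks.

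EIF2B4 (chromosome 3, 104278599 to 104282898) encodes the delta subunit of eIF2B, the exchange factor that reloads eIF2 with GTP. It had 47, 39, 48, 72 and 50 counts at 50 weeks, against 43, 41, 33, 55 and 56 at 35 weeks. The level was 221 ± 38.9 CPM in 50-week hens and 223 ± 56.1 CPM in 35-week hens (log2 fold change −0.0097, 95% interval −0.45 to 0.43). Its sign was positive in 10 of the 18 other settings. EIF2B2, for the beta subunit, had 9, 15, 12, 10 and 6 counts at 50 weeks, against 6, 13, 6, 9 and 2 at 35 weeks. The 5 eIF2B genes summed to 294 ± 40.9 CPM in 50-week hens and 274 ± 48.2 CPM in 35-week hens, and 3 of the 5 had higher means at 50 weeks. EIF2B1, for the alpha subunit, had 0 to 4 counts at 50 weeks and 1 to 6 at 35 weeks.

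The eIF3 genes comprised 12 members. EIF3J (chromosome 10, 19786463 to 19795172), a loosely attached subunit, had the most counts, with 113, 129, 129, 129 and 99 at 50 weeks, against 112, 109, 104, 130 and 94 at 35 weeks. Its level of 521 ± 59.4 CPM in 50-week hens and 533 ± 59.9 CPM in 35-week hens had an SD of 11.4% and 11.2% of the mean, where counting error alone would give 9.14% and 9.54%. The log2 fold change was −0.033, and its 95% interval ran from −0.34 to 0.27. EIF3A (chromosome 6, 30757241 to 30785724), for the subunit on which the complex is built, had 17, 8, 6, 9 and 12 counts at 50 weeks, against 18, 15, 8, 21 and 9 at 35 weeks. Its means were 46.3 ± 22.8 and 67.8 ± 24.3 CPM at 50 and 35 weeks (log2 fold change −0.57, SE 0.36, adjusted p = 0.64). The other 10 subunits had 0 to 11 counts in any library. EIF3I (1, 1, 11, 5 and 1 counts at 50 weeks and 6, 10, 6, 2 and 5 at 35 weeks) varied among hens of the same age. EIF3G had 1 to 3 counts at 50 weeks and 1 to 8 at 35 weeks, and EIF3K 0 to 4 and 3 to 5. EIF3H had 1 to 5 at 50 weeks and 0 to 7 at 35 weeks, and EIF3E 2 to 4 and 2 to 9. EIF3B (4 to 7 counts at 50 weeks and 1 to 7 at 35 weeks) and EIF3M (3 to 5 and 1 to 4) had higher means at 50 weeks. Of the 12 genes, 8 had lower means at 50 weeks.

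In the cap-binding group, EIF4A2 (chromosome 9, 15898312 to 15905193), an RNA helicase of the eIF4F complex, was the member that could be tested. It had 24, 22, 20, 28 and 29 counts at 50 weeks, against 26, 21, 26, 28 and 29 at 35 weeks. The counts were close, but the libraries at 35 weeks were on average smaller, and the levels were 107 ± 16.1 and 128 ± 24 CPM at 50 and 35 weeks (log2 fold change −0.25, 95% interval −0.71 to 0.21). The other 9 genes of this group had few counts. EIF4G2, a relative of the eIF4G scaffold, had 4, 4, 7, 9 and 7 counts at 50 weeks, against 9, 6, 9, 10 and 7 at 35 weeks. The scaffold gene EIF4G1 had 2 to 4 counts at 50 weeks and 1 to 3 at 35 weeks, the cap-binding protein gene EIF4E 1 to 3 and 0 to 4, and the scaffold relative EIF4G3 0 to 4 and 2 to 5. The helicase cofactor gene EIF4B had 1 to 5 counts at 50 weeks and 2 to 6 at 35 weeks, EIF4H 3 to 8 and 2 to 8, and the cap-binding relative EIF4E3 1 to 6 and 1 to 8. The sum of all 10 genes of the group overlapped between the ages, at 192 to 240 CPM at 50 weeks and 226 to 303 CPM at 35 weeks. Without EIF4A2 the sum was 91.5 to 133.3 CPM at 50 weeks and 136.0 to 161 CPM at 35 weeks. These ranges did not overlap once scaled to library totals, but by raw count the ages overlapped. All subgroup sums were examined with and without their gene with the most counts, and no other sum without that gene separated the ages. This gap was seen after other sums had been examined, is narrow at these counts and was not tested. Among single tested genes of the whole table, 1.64% had ages that did not overlap. No row of the count table carries the symbol EIF4A1 or EIF5A, so neither gene was analysed here.

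EIF4EBP1 encodes a repressor that binds eIF4E and is inactivated by mTORC1, the growth-control kinase complex. It was the 1 member listed in the authors' deposited table of their comparison. It had 1, 2, 3, 5 and 3 counts at 50 weeks, against 6, 8, 8, 5 and 4 at 35 weeks. By raw count replicate 4 at 50 weeks overlapped the 35-week hens, and the other 4 had at most 3 counts where every hen at 35 weeks had at least 4. Scaled to library size the groups did not overlap, with at most 19.4 CPM at 50 weeks and at least 21.4 CPM at 35 weeks. That gap rests on few counts and was not tested. EIF3K, with fewer counts still, also had scaled groups apart, with at most 15.55 CPM at 50 weeks and at least 15.95 CPM at 35 weeks. Of all tested genes, 1.64% had groups that did not overlap, but neither gene had enough counts to be among those tested. The means of EIF4EBP1 were 11.8 ± 5.39 CPM in 50-week hens and 30 ± 8.64 CPM in 35-week hens. In the authors' deposited table the log2 fold change was 1.31 (SE 0.62, p = 0.0346) with no adjusted p. That table runs as 35 weeks over 50 weeks, since all 99 of its positive genes had higher CPM at 35 weeks in the counts. EIF4EBP1 had too few counts for edgeR's filter. Without a filter edgeR gave a log2 fold change of −1.25 for 50 over 35 weeks (SE 0.56, unadjusted p = 0.0246, adjusted p = 0.581). EIF4EBP2 had 0 to 1 counts at 50 weeks and 0 to 2 at 35 weeks. The row named EIF4EBP3 carries the description of another gene, ANKHD1, so which gene its 0 to 6 counts belong to is uncertain. By its symbol it is included in the counts and sums of the initiation genes.

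Among the remaining initiation genes EIF5B, a GTPase that joins the ribosomal subunits, had the most counts of any untested member. It had 12, 10, 18, 4 and 17 counts at 50 weeks, against 8, 9, 5, 5 and 6 at 35 weeks, higher in 4 of 5 hens at 50 weeks than in any hen at 35 weeks by count. Replicate 4 at 50 weeks, 1 of the libraries that stood apart, was lower than all of them. The means were 53.7 ± 24.7 CPM in 50-week hens and 31.7 ± 6.36 CPM in 35-week hens. With no filter edgeR put the difference at 0.77 on the log2 scale, with an SE of 0.43 and an adjusted p of 0.581. Without replicate 4 at 50 weeks EIF5B passed the filter at 0.99 (unadjusted p = 0.00899, adjusted p = 0.194 by edgeR). Without the 3 libraries that stood apart it passed at 1.20 (unadjusted p = 0.0104, adjusted p = 0.164 by edgeR). In both settings EIF5B passed through the 50-week hens alone, where it was high, so these p-values cannot be read as a test of the difference. On leaving out single 35-week hens it was at 0.66 to 0.83 (adjusted p 0.564 to 0.655 by edgeR). EIF1, EIF1AX and EIF5, which act in start codon choice, had 0 to 5 counts in any library.

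**Figure D2:**
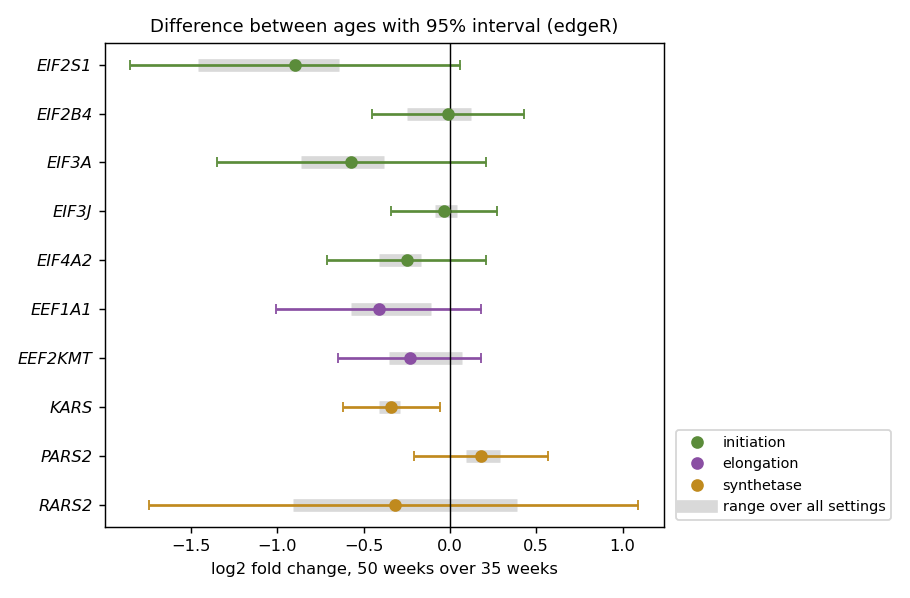
Log2 fold change of 50 weeks over 35 weeks for the 10 tested members (points) with the 95% interval (lines), coloured by class. The interval was derived from edgeR's quasi-likelihood F test. Grey bars span the values over all settings tried. The interval of KARS, −0.62 to −0.055, is the 1 that does not reach 0, and that of RARS2 is the widest, −1.74 to 1.09.

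Elongation was represented by EEF1A1 and EEF2KMT among the tested genes. EEF1A1 (chromosome 3, 81193011 to 81197655) encodes the factor that carries aminoacyl-tRNA to the ribosome, and had 62, 40, 30, 63 and 46 counts in hens 1 to 5 at 50 weeks, against 84, 83, 38, 61 and 29 at 35 weeks. Replicates 1 and 2 at 35 weeks were the highest libraries and replicate 5 at that age was among the lowest. The means were 211 ± 67.2 CPM in 50-week hens and 279 ± 98.5 CPM in 35-week hens (log2 fold change −0.41, SE 0.28, adjusted p = 0.658). Without the 3 libraries that stood apart the fold change was −0.11 (adjusted p = 0.925 by edgeR). EEF2KMT (chromosome 14, 13401865 to 13406292) encodes a methyltransferase that modifies a lysine of eEF2, a role known from human and yeast. It had 80, 102, 114, 110 and 100 counts at 50 weeks, against 123, 171, 89, 97 and 61 at 35 weeks. The SD was smaller at 50 weeks, with 438 ± 33.4 CPM in 50-week hens and 514 ± 155 CPM in 35-week hens. The log2 fold change was −0.23 (adjusted p = 0.753) and turned to 0.069 without the 3 libraries.

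The other elongation genes were too low to be tested. EEF2, for the factor that moves the ribosome, had 13, 5, 8, 6 and 6 counts at 50 weeks, against 11, 8, 7, 3 and 5 at 35 weeks, with means of 33.8 ± 17.3 CPM in 50-week hens and 32.6 ± 13.1 CPM in 35-week hens. The genes of the exchange factor that reloads eEF1A with GTP had lower means at 50 weeks. EEF1D had 10, 3, 7, 6 and 9 counts at 50 weeks, against 18, 9, 6, 15 and 4 at 35 weeks, and EEF1B2 had 4, 2, 3, 4 and 6 at 50 weeks, against 7, 6, 5, 8 and 4 at 35 weeks. With no filter edgeR gave −0.67 (SE 0.43) for EEF1D and −0.77 (SE 0.53) for EEF1B2, both with an adjusted p of 0.581. EEF1AKMT1, an eEF1A lysine methyltransferase gene, had 1 to 6 counts at 50 weeks and 2 to 9 at 35 weeks and averaged 12.8 ± 10.4 CPM in 50-week hens and 24.3 ± 13 CPM in 35-week hens, and EEF1AKMT4, named as an enzyme of the same kind, had 1 to 3 counts at 50 weeks and 1 to 4 at 35 weeks. EEF2K, for the kinase that inactivates eEF2, had 2, 3, 3, 1 and 1 counts at 50 weeks and 1, 0, 4, 0 and 0 at 35 weeks.

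**Figure D3:**
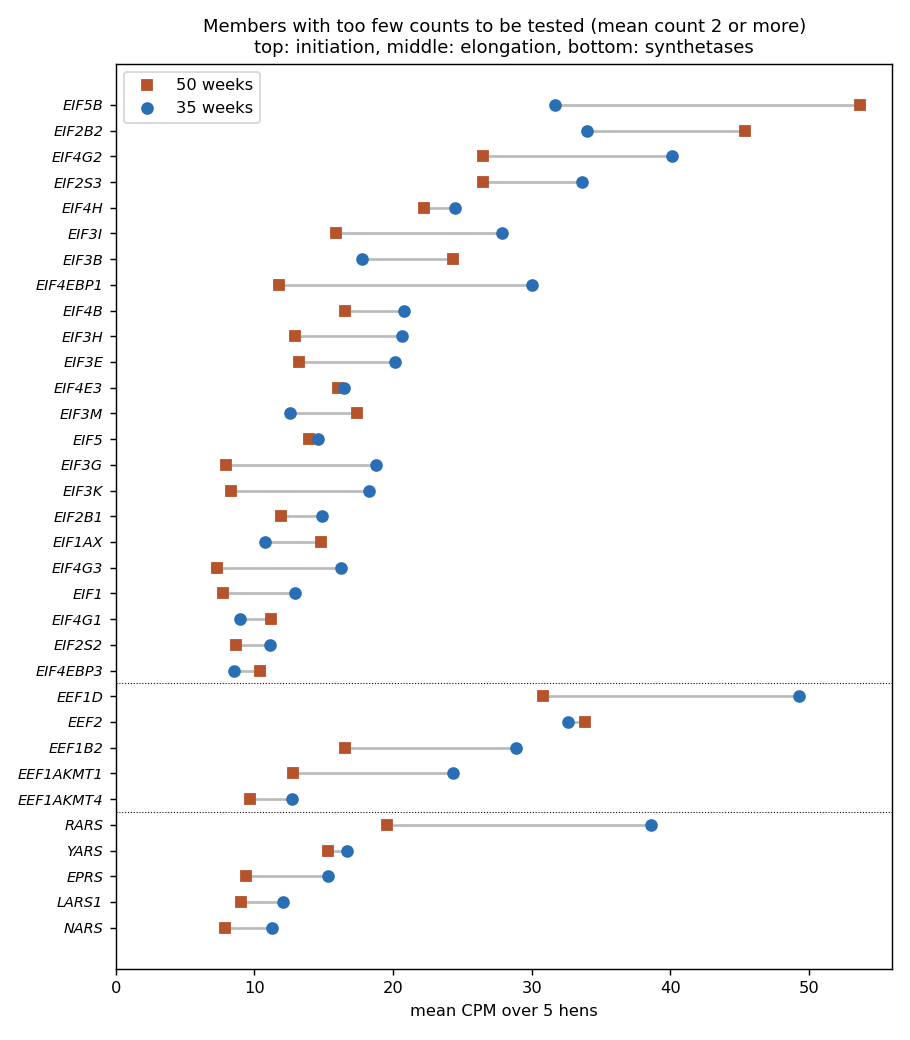
Mean CPM at 50 weeks (squares) and 35 weeks (circles) over 5 hens of the members that averaged 2 counts or more but could not be tested, grouped by class. EIF5B lies highest at 50 weeks with 53.7 CPM, and most of the members shown, EIF4EBP1, RARS and EEF1D among them, lie to the left at 50 weeks.

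Summed over all its genes, each class was lower on average at 50 weeks, and the ages overlapped in every class. Initiation genes summed to 1423 ± 106 CPM of the library total at 50 weeks and 1530 ± 96.4 CPM at 35 weeks. Elongation genes summed to 775 ± 60.6 CPM in 50-week hens and 937 ± 250.3 CPM in 35-week hens, and without the 3 libraries that stood apart the difference of −162 CPM turned to 2.99 CPM. Synthetase genes summed to 1228 ± 164 CPM in 50-week hens and 1390 ± 114 CPM in 35-week hens. KARS alone held 56.7% of the synthetase counts, and without it the difference was −8.9 CPM instead of −162 CPM. EEF2KMT held 55.7% of the elongation counts and EIF3J 35.7% of the initiation counts. The difference in the initiation sum was −67.8 CPM without replicate 4 at 35 weeks, against −107 CPM with all hens. That in the synthetase sum was −104 CPM without replicate 2 at 50 weeks, and that in the elongation sum −90.2 CPM without replicate 2 and −248 CPM without replicate 5 at 35 weeks.

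**Figure D4:**
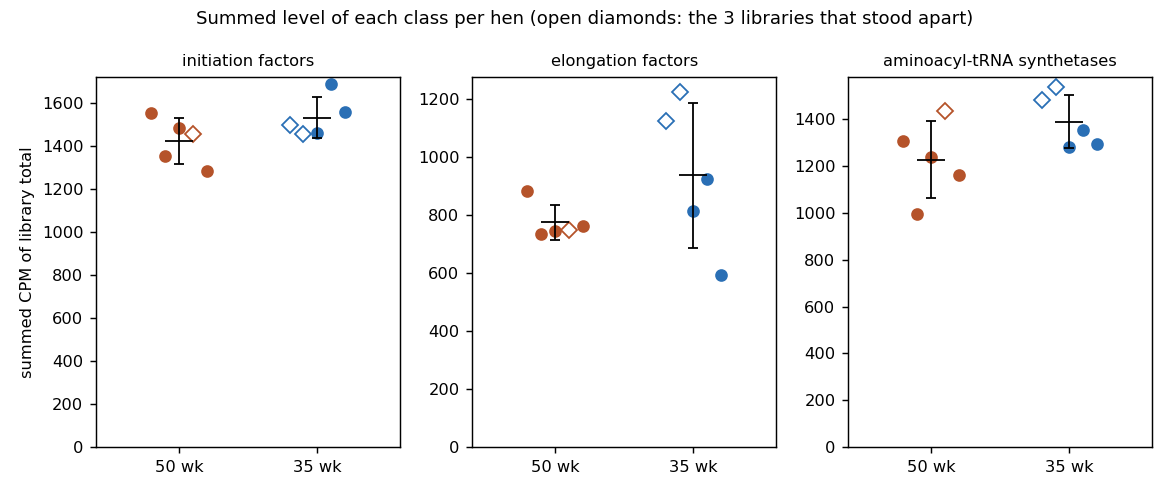
Summed level of the initiation, elongation and synthetase genes in every hen, in CPM of the library total, at 50 weeks (left) and 35 weeks (right), with the mean and SD over 5 hens. Open diamonds mark the 3 libraries that stood apart. Elongation genes at 35 weeks span 595 to 1226 CPM, and at 50 weeks 737 to 882 CPM.

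A further 7 lists covered other genes of the pathway, and none of their tested genes passed over all genes in edgeR's test. Of the eIF2 kinases and the stress response they trigger, 3 of 11 genes in the table could be tested, 2 lower and 1 higher at 50 weeks. ATF4, whose translation rises when eIF2 is phosphorylated and which activates synthetase genes in mammals, averaged 171 ± 30.3 CPM in 50-week hens and 192 ± 47 CPM in 35-week hens (log2 fold change −0.17, SE 0.22). The kinase genes EIF2AK4, which senses uncharged tRNA, and EIF2AK2, which senses double-stranded RNA, had log2 fold changes of −0.14 and 0.27. Of 12 rows for mTORC1 and its targets, RPS6KB2 (−0.23), RPS6KB1 (−0.31) and PDCD4 (−0.38) could be tested, the S6 kinases and a helicase inhibitor they act on, and all were negative. MTIF3, a mitochondrial initiation factor gene, averaged 418.5 ± 52.9 CPM in 50-week hens and 328 ± 52.9 CPM in 35-week hens (log2 fold change 0.35, SE 0.16, adjusted p = 0.473), and the mitochondrial elongation factor gene GFM1 was at −0.22. PABPC1, the cytosolic poly(A)-binding protein gene, was at 0.065. GATC, a subunit of the mitochondrial enzyme that corrects glutamyl-tRNA to glutaminyl-tRNA, was at 0.22, and PSTK, which acts on selenocysteine tRNA, at 0.57. DPH5, an enzyme of the diphthamide modification of eEF2, averaged 2592 ± 185 CPM in 50-week hens and 2557 ± 280.0 CPM in 35-week hens (log2 fold change 0.02, SE 0.13), and DNAJC24 of the same pathway was at −0.18. No gene of termination and recycling could be tested.

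The counts of these genes depend on how reads were assigned. Libraries were made with a kit that marks strand, no source used here gives the strand setting of the counting, and the RefSeq table of the same build has no strand column. It placed 76 of the 83 members, of which 63, including all 10 tested, overlap another gene or lie within 1 kb of one. Where the neighbour also had a row in the count table, it had more counts than the member in 21 of 69 pairs. Of the tested members KARS alone had such a neighbour, TERF2IP, with a mean of 296 counts against 162.7. Beside the other tested members the neighbour with the most counts was SLC35A1, which overlaps RARS2, with 6.9, but some of their neighbours had no row. EEF1D averaged 8.7 counts, and TIGD5, within 1 kb, 82.4 (log2 fold change 0.50, adjusted p = 0.331 by edgeR). EEF1B2 averaged 4.9 counts, while GPR1, within 1 kb, averaged 2266.5. EIF3I averaged 4.8 counts and TMEM234, which overlaps it, 387. FARS2, at 0 throughout, lies within 1 kb of LYRM4, with 52.4 counts. On the log2 scale these neighbours were at 0.089 for GPR1, 0.034 for TMEM234 and −0.13 for LYRM4. If the counting ignored strand or took the opposite strand, the counts of a member would hold reads of genes on the other strand, and its level and fold change would not be its own. Which setting was used, and whether reads of a neighbour entered a member's count or the reverse, was not tested. Counts were not divided by transcript length, so levels of different genes are not ranked.

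**Figure D5:**
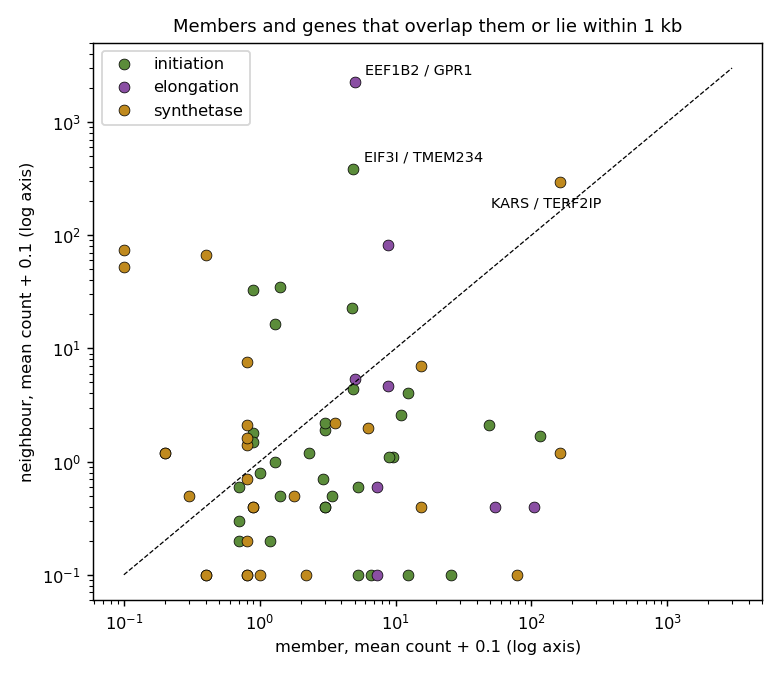
Mean count over 10 libraries of each member (horizontal, log axis) and of each gene that overlaps it or lies within 1 kb and has a row in the table (vertical, log axis), with 0.1 added to show values of 0. Points above the dashed line, 21 of 69, have more counts in the neighbour than in the member.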

How the data were processed

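The labelled age placed the 10 RNA-seq libraries into 2 groups of 5. Per the labels' protocols, total RNA with an integrity number above 7 was made into directional libraries (NEBNext Ultra II). Trimmomatic, HISAT2, Cufflinks, DESeq2 and the build GRCg7b appear in the submitters' processing notes, with no role given. The read counter and its strand setting are not stated there. Whole-number counts for each Ensembl gene were deposited by the authors, with a table of their own comparison whose log2 fold changes and p-values are theirs, per the file headers.

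The 83 members and the gene lists were chosen with earlier results of these data known. For the test, edgeR 4.0.16 under R 4.3.3 was run with age as the only term (filterByExpr, minimum count 10; TMM; robust quasi-likelihood F test, two-sided) over all 1773 tested genes, with Benjamini-Hochberg adjustment and a threshold of 0.05. The biological coefficient of variation was 0.285. The script was tested on simulated data. The CPM of single genes use the library total times the TMM factor, and summed CPM use the total alone. Every library pair of an age differed by more than sampling noise (chi-square of at least 2.66 per degree of freedom), so each library counts as 1 replicate. Named with values per hen was every tested member. Untested members with a mean count of 2 or more, and members named for their role, were given with ranges or values per hen. The lists contributed their tested genes. Alternatives were RLE or no scaling factors, 2 other filters, DESeq2 1.42.0, limma 3.58.1 with sample weights, a replicate block, and leaving out each library. Same-numbered libraries are different birds, and their deviations correlated at −0.112 to 0.099. Leaving out the 3 libraries that stood apart was chosen after seeing the data. Tables and figures used Python 3.11.15 with pandas 2.3.3 and matplotlib 3.10.9.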

Additional observations from a re-analysis of the deposited data

Results flagged for a closer look

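The summed level of the elongation genes in replicate 1 at 50 weeks, 882 CPM, lay apart from the other 4 hens of that age, at 737 to 762 CPM, by more than Dixon's 95% critical value. In that library EEF1A1 had 62 counts and EEF2 had 13, and EEF2KMT had the lowest count of its age, 80. It was the 1 of 26 groups of 5 hens examined (the 10 tested members and the 3 class sums at each age) that exceeded this value, and chance alone marks about 1 in 20.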

How the results depend on the processing

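No member passed the threshold in any setting, while the number of all genes that passed, 1 by the main test, was 36 with no filter on low counts, 40 where 5 libraries had to reach 1 CPM, 8 with DESeq2, 8 with limma and sample weights, 2 with the replicate block, 42 without the 3 libraries that stood apart, and 1 to 12 on leaving out single libraries (12 without replicate 4 at 50 weeks). The number of members with an unadjusted p under 0.05, 1 by the main test, was 5 of 79 with no filter (5.86% of all genes), 4 of 63 with the CPM filter (7.25%), 2 of 79 with DESeq2 (2.01%), 2 with limma (13.6%), 3 without the 3 libraries (14.9%), and 0 to 3 of 10 or 11 on leaving out single libraries (7.62% to 12.7%). KARS was not among them with no filter, with the CPM filter, or when 50-week replicate 2, 50-week replicate 5 or 35-week replicate 3 was left out. EIF5B was among them without replicate 4 at 50 weeks and without the 3 libraries, having passed the filter through the 50-week hens alone. Negative members numbered 52 of 79 with no filter, 43 of 63 with the CPM filter and 53 of 79 with DESeq2, since more genes were tested. The share of all genes that were negative was not taken in these settings. The synthetase difference was −8.9 CPM without KARS. EIF2B4 turned to 0.031 with library totals only, 0.016 with no filter, 0.013 with the CPM filter, 0.003 with DESeq2 and 0.00067 with the replicate block, and lay between −0.10 and 0.12 on leaving out single libraries. EIF3J turned to 0.011 with library totals only, and lay between −0.067 and 0.042 on leaving out single libraries. RARS2 lay between −0.91 (without replicate 4 at 50 weeks) and 0.39 (without replicate 2 at 35 weeks) and did not pass the filter on low counts without the 3 libraries. EEF2KMT turned to 0.069 without those. The cause of these turns was not tested. KARS, EIF2S1, EIF3A, EIF4A2 and EEF1A1 stayed negative, and PARS2 positive, in all 18 other settings. Replicate numbers do not pair hens, and the block called no member. At these counts 73 of 83 members could not be tested, and the part of depth and of read assignment in that was not tested.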
